A study of Mus musculus with 7 samples.

Results

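The TRF2 CUT&Tag experiment comprised 2 libraries made with an anti-TRF2 antibody and 1 library made with rabbit IgG. All 3 came from wildtype mouse muscle stem cells (MuSCs) of the tibialis anterior, taken 3 days after injury with 10 µl of notexin, a snake venom toxin that destroys myofibres, per the labels, whereas the study's methods give an earlier time point and also name the gastrocnemius and mice carrying a Pax7 Cre allele and a TdTomato reporter. Regions were taken as members when peaks of both TRF2 libraries touched each other on chromosomes 1 to 19 and no IgG peak touched the merged region. This held for 7052 of 19918 merged regions, or 35.4%. The study's general methods sort MuSCs as CD45-/CD31-/CD11b-/Sca1- and α7-integrin+ with VCAM or CD34. For the CUT&Tag cells they cite another published isolation, so this sort may not hold for these libraries. The labels do not say whether the libraries came from separate animals. No cell type can be read from a TRF2 peak. Of marker genes, 6 of 17 for MuSCs had a member within 1 kb of a start, or 35.3%, beside 24.9% of all coding genes and 36.8% of those with accessible starts. None of the 10 immune, 8 endothelial or 8 fibro-adipogenic progenitor markers had one, and 2, 6 and 5 of these had accessible starts.

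TRF2, encoded by Terf2, is a subunit of shelterin, the complex that binds the double-stranded TTAGGG repeats of telomeres and keeps chromosome ends from being treated as DNA breaks. It is also known to occupy repeats and promoters away from chromosome ends and to bind G-quadruplexes (G4s), stacked structures that guanine-rich DNA can form. In CUT&Tag, an antibody brings a protein A-Tn5 transposase to its target and the enzyme cuts and tags the DNA nearby. Tn5 also cuts accessible chromatin with no antibody to guide it, which the IgG library is meant to measure. MuSCs lie quiescent beneath the basal lamina of the myofibre and enter the cell cycle after injury.

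Regions of 2 kinds are shown first because the results below return to them (mm10, plus strand). The first are 2 regions beyond 3 kb from any start, with the AP-1 consensus TGANTCA and any G4 pattern in capitals. AP-1 is the dimer of Fos and Jun family factors. One lies downstream of Pax7, the master regulator of MuSC identity, and the other belongs to the strongest members with an AP-1 match.
Pax7 downstream region, first 300 bases, chr4:139716531-139716830: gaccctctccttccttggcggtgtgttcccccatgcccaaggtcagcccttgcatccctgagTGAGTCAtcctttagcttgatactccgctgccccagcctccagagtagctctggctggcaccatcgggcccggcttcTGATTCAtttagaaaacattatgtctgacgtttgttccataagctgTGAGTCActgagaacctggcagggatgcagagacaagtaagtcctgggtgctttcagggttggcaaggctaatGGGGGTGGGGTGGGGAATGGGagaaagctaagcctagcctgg
Intronic region of Trpm6, chr19:18890292-18890591: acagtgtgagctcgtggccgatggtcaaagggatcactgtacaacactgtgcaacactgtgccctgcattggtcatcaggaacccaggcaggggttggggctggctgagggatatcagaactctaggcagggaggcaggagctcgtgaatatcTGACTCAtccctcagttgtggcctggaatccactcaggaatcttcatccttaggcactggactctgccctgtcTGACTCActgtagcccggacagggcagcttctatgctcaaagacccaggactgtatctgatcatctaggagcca
Last are 150-base windows at the summits of 3 promoter members, none in an annotated exon, with GGGCGG (GC box), CCAAT and CCGGAAG (ETS core) of either strand in capitals. Arrdc4 and Add3 had some of the highest folds of any coding start, and Jun encodes an AP-1 subunit.
Arrdc4 promoter, chr7:68749390-68749539: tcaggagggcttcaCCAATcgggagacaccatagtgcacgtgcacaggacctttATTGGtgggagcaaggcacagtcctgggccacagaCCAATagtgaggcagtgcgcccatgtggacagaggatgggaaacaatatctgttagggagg
Add3 promoter, chr19:53142526-53142675: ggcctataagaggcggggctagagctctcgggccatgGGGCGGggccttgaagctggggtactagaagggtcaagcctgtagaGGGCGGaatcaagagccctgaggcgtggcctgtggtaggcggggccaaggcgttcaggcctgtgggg
Jun promoter, chr4:95052268-95052417: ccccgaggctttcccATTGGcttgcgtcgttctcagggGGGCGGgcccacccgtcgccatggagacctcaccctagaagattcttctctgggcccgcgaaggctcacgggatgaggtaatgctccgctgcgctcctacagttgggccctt

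TRF2 gave far more peaks than IgG. The IgG library held 640 peaks, TRF2 replicate 1 held 12066 and TRF2 replicate 2 held 15223. The lists keep only regions over the caller's threshold and give no library total, so sequencing depth is unknown. The fold and p-value of a peak together give the number of fragments at its summit, and the median was 9 fragments in each of the 3 libraries. The lowest background at any summit was 0.399 fragments for IgG, 0.312 for TRF2 replicate 1 and 0.285 for TRF2 replicate 2. These are minima over lists of unlike length, and a longer list can reach lower. The median background was 0.722 for IgG, 0.837 for TRF2 replicate 1 and 0.693 for TRF2 replicate 2, so IgG lay between them. Backgrounds at called peaks do not give the depth. With 1 IgG library there is no spread for the control and the antibodies were not compared by a test.

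The members were wide and close to starts. Their median width was 483 bp, with quartiles of 382 and 614 bp and a range of 211 to 1517 bp, against 310 bp for IgG peaks, 280 bp for regions of replicate 1 alone and 237 bp for regions of replicate 2 alone. A merged region spans 2 peaks, which widens it, and the peaks inside the members had medians of 397 bp in replicate 1 and 362 bp in replicate 2. Within 3 kb of an annotated transcript start lay 5128 members, or 72.7% (95% interval 71.7 to 73.8, exact Clopper-Pearson, counting error only). That share was 18.8% for IgG peaks, 47.6% and 42.0% for regions of replicate 1 or replicate 2 alone, and 15.6% for the bases of chromosomes 1 to 19. Of the others, 921 lay in introns, 890 between genes, 75 in exons and 38 in UTRs.

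Agreement between the TRF2 libraries rose with fold. In replicate 1, when peaks were split by fold into 5 equal groups, 29.0% of the lowest group were found in replicate 2, and 93.3% of the highest. For replicate 2 the shares were 20.4% and 84.5%. Overlap with IgG stayed between 1.15% and 1.74% through the lower 4 groups of both libraries and was 5.18% and 4.99% in the highest.

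**Figure D1:**
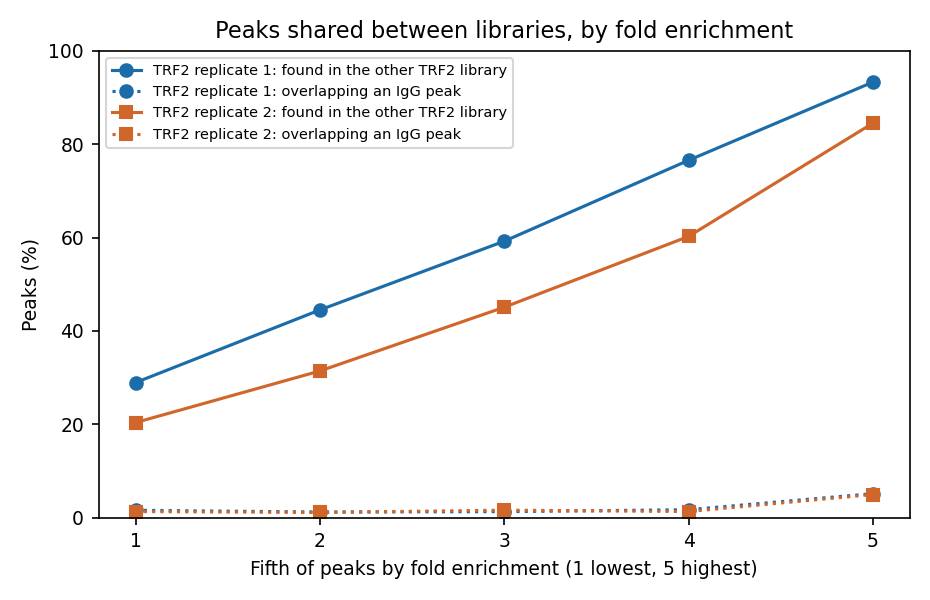
Percent of peaks of each TRF2 library (vertical axis) that touched a peak of the other TRF2 library (solid lines) or an IgG peak (dotted lines), by 5 equal groups of fold enrichment (horizontal axis). Solid lines climb to 93.3% for replicate 1 and 84.5% for replicate 2 in the highest group, while the dotted lines stay at or under 5.18%.

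Across the members, Spearman's rho between the folds of the libraries was 0.54 (7052 regions of 2 libraries that share the choice of both having a peak, given as a description). The fold in replicate 2 over that in replicate 1 had a median of 1.07 and lay between 0.771 and 1.48 over the span from the 10th to the 90th percentile. Summits of the paired peaks were a median of 72 bp apart. The lower of a member's 2 folds, used below to rank members, had a median of 5.72 and ran from 2.45 to 33.9. Most members rest on few fragments: from the 10th to the 90th percentile they had 7 to 20 fragments at the summit in each library.

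Summits gathered just upstream of coding starts. A coding start lay within 1 kb of the summit for 4537 members, or 64.3%, and the median summit was at -26 bp, with quartiles of -116 and 28 bp. Of these summits 62.4% were upstream of the start and 57.8% were within 100 bp of it. For regions of 1 TRF2 library alone, 30.6% had a coding start within 1 kb of the summit, with a median position of 1 bp. Among IgG peaks 32 of 640 did, and 3 of those were within 100 bp.

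**Figure D2:**
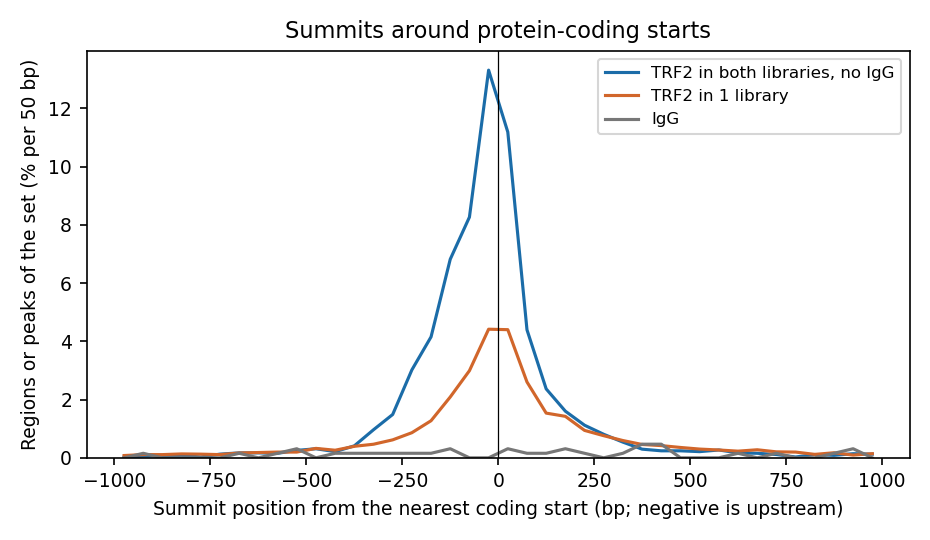
Summit position from the nearest coding start in bp (horizontal axis, negative is upstream) against the percent of each set per 50 bp (vertical axis). Members peak just upstream of the start with a median of -26 bp, regions of 1 TRF2 library are lower and centred at 1 bp, and IgG peaks show no rise at the start.

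At this distance 5173 of 20807 protein-coding genes, 24.9%, had a member within 1 kb of a start, here called marked. A start is that of any annotated transcript and can lie far inside a gene. With starts of genes only, 4724 were marked. IgG peaks lay at the starts of 27 coding genes, 0.13%. Of the marked genes 5038 had 1 member and 3 had the most seen, 3 members. Other gene types were marked less often, with 212 of 5209 lincRNAs, 39 of 8924 processed pseudogenes and 78 of 2054 miRNA genes. Bidirectional promoter lncRNAs, which by definition start back to back with a coding gene, were marked at 74 of 190, or 38.9%. Among coding genes with accessible starts, 1242 of 2276 (54.6%) with a divergent coding partner within 1 kb were marked, against 3921 of 11767 (33.3%) without. These promoters were also more accessible. Of coding genes with a Control replicate 1 ATAC peak at a start, the 20% with the highest fold are called the most accessible genes below. They held 33.7% of genes with a divergent partner and 13.7% of all coding genes. Among them, the marked shares were 82.6% of genes with a divergent partner and 78.9% of all genes. The same member then counts for both genes of a pair, and 644 members had coding starts on both strands within 1 kb.

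Members lay in open chromatin. ATAC-seq, which maps accessible DNA with Tn5, was available from MuSCs labelled 0 h in 2 Control and 2 TRF2KO libraries of hind limb muscle. The titles name the TRF2KO libraries so, but their genotype label reads Wildtype, so their genotype is in doubt. A Control peak of both libraries lay on 90.2% of members (89.5 to 90.9) and a TRF2KO peak of both libraries on 89.7% (89.0 to 90.4), against 31.9% and 31.4% of IgG peaks. The ATAC peak under a member was strong, with a median fold percentile of 93.6 in Control replicate 1. Starts were open, with a Control peak of both libraries within 1 kb, for 14043 coding genes (67.5%), and 36.8% of open genes were marked. Marking followed accessibility closely: of 5 equal groups of genes by the fold of the Control replicate 1 ATAC peak, 3.94% of the lowest were marked, then 14.8%, 32.4% and 51.5%, and 78.9% of the highest. By their labels the cells of the 2 assays differed in muscle, and the ATAC labels name no injury. This therefore sets TRF2 in injured muscle beside accessibility at 0 h.

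No ATAC peak of any library lay on 503 members, 7.13%. Of these 407 were beyond 3 kb from any start, and their median lower fold was 5.11, with 4 at 10 or more. They were less GC-rich than the members as a whole, at a median of 51.1% against 62.5%.

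Sequence set the members apart from IgG peaks. The median GC content of members was 62.5%, with quartiles of 55.8% and 67.6%, against 50.3% for IgG peaks. CpG dinucleotides, depleted in most of the mouse genome but kept in promoter CpG islands, stood at a median of 0.70 of the number their base content predicts in members and 0.10 in IgG peaks. Repeats marked in the genome sequence covered a median of 4.24% of a member and 81.6% of an IgG peak. More than 50% of the bases were repeats in 164 members (2.33%) and in 385 IgG peaks (60.2%). Repeats filled most IgG peaks, and 58 of the 235 regions that both TRF2 libraries shared with IgG were within 3 kb of a start.

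Promoter and distal members carried different letters. In 300 bp centred on the summit, GGGCGG was found in 70.3% of the 5128 members within 3 kb of a start, CCAAT in 40.1%, CCGGAAG in 15.6% and the NRF1 consensus in 10.2%, counting both strands. Control ATAC peaks within 3 kb, in windows of the same length, held them in 36.1%, 32.4%, 8.15% and 3.82%. RefSeq promoters (300 bp, mm10) were matched for 15687 coding genes. GGGCGG was in 72.9% of the promoters of marked genes, 59.1% of open unmarked genes and 48.6% of all, and CCAAT was in 45.0%, 33.2% and 38.4%. TATAAA was in 4.98%, 8.06% and 12.9%. Letters in a window do not show that a factor was there. The Arrdc4 window printed above held 3 CCAAT matches and the Add3 window 2 GC boxes.

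G4 patterns, here 4 runs of at least 3 guanines separated by 1 to 7 bases, on either strand, were in 29.0% of promoter summit windows and 12.2% of distal ones, against 9.84% of IgG windows. ATAC peaks were also split into 5 steps of 20 percentiles of ATAC fold at 0 h, with windows on the ATAC summit. Within 3 kb of a start, from low to high, the pattern was in 11.5%, 8.89%, 20.4%, 22.5% and 29.3% of ATAC peaks on a member. It was in 12.4%, 11.3%, 13.2%, 16.2% and 19.04% of those on no TRF2 peak. The share on members was thus the lower one at the lowest steps, which hold 26 and 45 member peaks, and the intervals were apart in the highest 2 steps alone. Beyond 3 kb the shares were 3.08%, 8.26%, 7.41%, 11.7% and 12.8% on members and 7.005%, 6.10%, 6.26%, 6.42% and 7.58% on no TRF2 peak, again apart in the highest 2 steps alone. In the RefSeq promoter windows the shares were nearly level, at 28.4% for marked and 28.2% for open unmarked genes. Base content differed as well, with a median GC of 63% in marked and 60% in open unmarked promoters, and its part was not tested.

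Distal members were rich in AP-1 matches. Among the 1924 members beyond 3 kb from any start, TGANTCA was in 869 summit windows, or 45.2% (42.9 to 47.4). Control ATAC peaks beyond 3 kb held it in 18.6% (18.3 to 18.9), distal regions of replicate 1 alone in 27.9%, those of replicate 2 alone in 32.2% and distal IgG peaks in 4.62% (2.98 to 6.79). Promoter members held it in 8.79%. Among distal members the share was 41.3% in the lowest 641 by lower fold and 47.4% in the highest 642, with overlapping intervals. TGTGGT, the RUNX core, was in 31.3% of distal members and 22.8% of distal ATAC peaks, while the CTCF consensus was in 1.09% and 3.86%. Also lower in distal members were the E-box CAGCTG, at 32.9% and 37.7%, and CCAAT, at 25.9% and 32.1%. Within 3 kb of a start, CAGCTG was in 18.2% of members and 29.2% of ATAC peaks. The AP-1 match was chosen for closer description after its values were seen.

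AP-1 matches were also set beside ATAC fold at 0 h, in cells whose labels name no injury. Distal Control ATAC peaks on a member held TGANTCA in 50.6% (48.0 to 53.3) of windows on the ATAC summit, and those on no TRF2 peak in 16.6% (16.3 to 16.9). Over 5 steps of 20 percentiles of ATAC fold, from low to high, the shares on members were 55.4%, 58.7%, 54.3%, 58.6% and 44.7%. Those on no TRF2 peak were 13.2%, 16.4%, 17.0%, 18.3% and 20.4%, and the intervals did not overlap at any step. The distal members without any ATAC peak held it in 39.6% (34.8 to 44.5). Windows are not replicates of a condition, and no test was made.

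**Figure D3:**
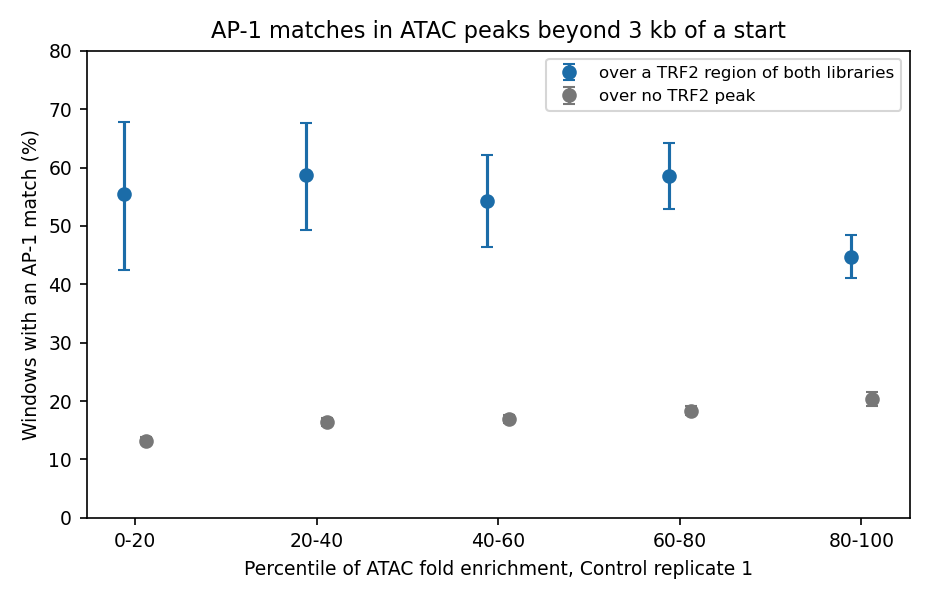
Percent of 300-bp windows on ATAC summits beyond 3 kb from a start that hold TGANTCA (vertical axis), by percentile of ATAC fold in Control replicate 1 (horizontal axis), with exact 95% intervals. Blue points, peaks on a TRF2 member, lie between 44.7% and 58.7%, and grey points, peaks on no TRF2 peak, between 13.2% and 20.4%.

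The strongest distal members with an AP-1 match were of unlike kinds. A region of 739 bp nearest to Gpd1l (chr9:114955694-114956432) had folds of 20.05 and 22.2 from 191 and 182 fragments, and no Control ATAC peak lay on it. The sequence around its summit is a short unit repeated in tandem, although none of it is marked as repeat. The region printed above, in an intron of Trpm6 (chr19:18890269-18890661) had folds of 12.51 and 12.7, with 28 and 23 fragments, 2 TGANTCA matches and weak Control ATAC peaks of 5.98 and 6.30 fold. Distal members lay a median of 23491 bp from the nearest coding start, and 264 were more than 100 kb away.

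At Pax7 no TRF2 peak of either library lay within 1 kb of a start. The region downstream of the gene (chr4:139716531-139716848), 20213 bp beyond its 3′ end, had folds of 4.54 and 5.12 with 9 fragments in each library, below the median of members. It held 3 TGANTCA matches and 1 G4 pattern, both printed above. Its ATAC peaks had folds of 77.3 and 64.1 in Control and 68.8 and 72.6 in TRF2KO. A second member lay in an intron of Pax7 (chr4:139805284-139805697), 27537 bp from the start, with folds of 5.79 and 4.98 from 10 and 8 fragments and with neither pattern at its summit. Its ATAC peaks were 23.9 and 22.5 in Control and 48.5 and 49.7 in the libraries titled TRF2KO, whose genotype is in doubt, folds that are set within each library and were not tested against each other here. The IgG library had no peak at either place.

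Repeats of the telomeric hexamer were few among the members but had some of the highest folds, and IgG peaks lay on more of them. Non-unique reads had been removed before peak calling, and telomere ends themselves are not measured by these lists. The study reports, from a separate count of telomeric sequence, that most TRF2 binding was at telomeres. Whether reads placed on the arrays below came from those arrays or from telomere ends was not tested. Of the 7052 members, 10 held at least 3 consecutive TTAGGG units, against 22 of the 235 regions shared with IgG and 22 of 640 IgG peaks. The highest member of all was an array of 34 consecutive units on chromosome 3 (chr3:159939405-159939678), with folds of 33.9 and 40.2. At the 22 shared arrays the median folds were 31.2 and 37.4 for TRF2 and 22.4 for IgG, and TRF2 was higher in both libraries at 21. At the other 213 shared regions the medians were 6.85, 7.78 and 6.73, with both TRF2 libraries higher at 103. Folds are set against each library's own background, so this ranks peaks and does not compare amounts.

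Arrays were also found in 1 library alone. The 3 strongest such peaks were all in replicate 2 and all held telomeric units: 1 at Phf21a (chr2:92093597-92093804) with a fold of 39.0 and 7 units, 1 on chromosome 17 with 35.2 and 9 units, and 1 on chromosome 9 with 30.2 and 10 units. High folds without telomeric units were seen too. Members whose nearest coding starts are those of Myl12b, Gphn and Hic2 had lower folds of 32.6, 31.1 and 30.7 with 109 to 138 fragments in replicate 1, and Control ATAC peaks lay on them with folds of 394 to 461 in replicate 1. The 3 strongest IgG peaks, at folds of 41.7, 41.3 and 37.1 on chromosomes 12, 6 and 9, likewise lay on ATAC peaks, of 919, 611 and 945 fold.

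At coding starts the highest lower folds belonged to Gm20594 (22.5), Plcb4 (16.4), Cbwd1 (15.5), Tmx3 (14.2), Add3 (14.1), Pkn2 (14.1), Cdca2 (13.7), Samd4b (13.6), Evi5l (13.6) and Arrdc4 (13.4). Plcb4 encodes a phospholipase C, Tmx3 a protein disulfide isomerase, Add3 an adducin of the membrane skeleton, Pkn2 a protein kinase and Cdca2 a chromatin-bound phosphatase regulator of mitosis. The region listed under Cdca2 overlapped both Cdca2 and Kctd9, and the coding start nearest its summit, 67 bp away, was that of Kctd9. The Gm20594 region had 40.1% GC, against a median of 62.5% for all members, and the origin of its reads was not tested. Repeats covered 87.5% of the Plcb4 region, and its Control ATAC peak was found in 1 of 2 libraries. The Add3 region (chr19:53142277-53142945, 669 bp) had folds of 15.4 and 14.1 from 48 and 40 fragments. The Arrdc4 region (chr7:68749168-68749634) had 13.4 and 14.8 from 32 and 35 fragments. Width and lower fold had a Spearman rho of 0.25 across members, and the widest member, 1517 bp over Egr1, an immediate early transcription factor gene, had folds of 6.36 and 7.41. The next widest lay at Fbh1 (1490 bp), Gm28536 (1470 bp), Spink8 (1470 bp) and Gt(ROSA)26Sor (1466 bp).

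Of the 29 lists examined, SR proteins and hnRNPs, which bind nascent RNA and steer splicing, had the highest share of marked genes, 23 of 29, against 24.9% of coding genes and 36.8% of open ones. The order of the lists below it changed with the processing. Hnrnpl had folds of 9.30 and 10.1 and Hnrnpk of 8.35 and 8.73. Of these genes 17 were among the most accessible, where 15 were marked, against 78.9% of all of the most accessible genes. The count fell to 15 when peaks had to cover each other by 50% and to 13 with stricter peaks. All marked coding genes fell as well, from 5173 to 4147 and to 2944.

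DNA damage response genes were marked at 18 of 30, and at 12 with 50% reciprocal overlap or with stricter peaks. Both settings lowered the count of all marked coding genes too, as given above. Atm, the kinase that TRF2 is known to hold in check at telomeres, had 9.48 and 8.02. Replication licensing and cell cycle genes were marked at 23 of 40, among them Gins2 of the replicative helicase (10.9 and 10.5), Cdk4 (10.8 and 9.54) and the sliding clamp Pcna (9.06 and 7.88). Mcm4 and Prkdc, which start back to back, share 1 region with folds of 9.29 and 8.19. Among the most accessible genes, 8 of 10 damage response and 9 of 10 cell cycle genes were marked, near the 78.9% of all genes there.

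Replication-dependent histone genes were marked at 33 of 67, although none was among the most accessible. They sit in clusters and 1 region can serve a pair, as at Hist1h2ac and Hist1h2bc (8.11 and 7.81). Reads of near-identical copies are uncertain, since only uniquely aligned reads were kept. Aminoacyl-tRNA synthetases were marked at 20 of 36, with Fars2 at 11.2 and 12.9, and CCT chaperonin subunits at 4 of 7, with Tcp1 at 8.57 and 9.82. Proteasome subunits stood at 18 of 38, with Psmc6 at 10.1 and 8.71, and translation initiation factors at 18 of 44, with Eif3j1 at 12.3 and 12.7. Of open genes, 54.1% of these histone genes, 55.6% of the synthetases and 57.1% of CCT subunits were marked, beside 36.8% of all open genes. The shares were 48.6% for proteasome subunits and 41.9% for initiation factors. Among the most accessible genes, 6 of 9 synthetases and 5 of 9 proteasome subunits were marked, beside 78.9% of all genes there. For initiation factors it was 10 of 11 and for CCT subunits 3 of 3.

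Other housekeeping lists were near the share of open genes. Cytosolic ribosomal proteins, all of them open, were marked at 26 of 74, led by Rpl15 at 10.7 and 14.7. Mitochondrial ribosomal proteins were marked at 27 of 75, with Mrpl17 at 10.4 and 11.4. Oxidative phosphorylation subunits were marked at 27 of 72, with Uqcrq of complex III at 10.6 and 10.9. Apart from housekeeping lists, zinc finger genes named Zfp were marked at 109 of 383, with Zfp672 at 13.9 and 13.0. Of the open Zfp genes 33.1% were marked, beside 36.8% of all open genes.

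**Figure D4:**
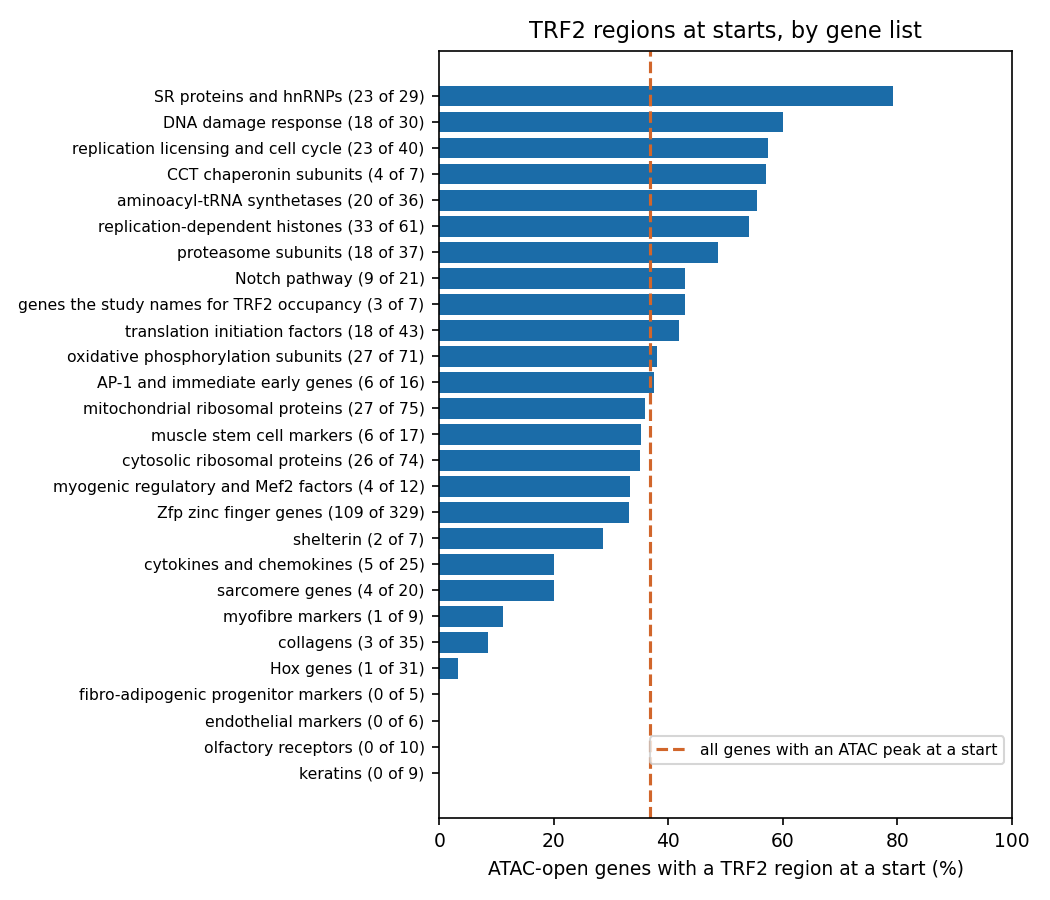
Percent of ATAC-open genes with a TRF2 member at a start (horizontal axis) for lists with at least 5 open genes, with counts beside each name and a dashed line at 36.8%, the share of all open genes. SR proteins and hnRNPs reach 79.3%, while Hox genes stand at 3.23% and endothelial and fibro-adipogenic markers at 0.

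Hox genes, collagens and cytokines and chemokines were marked at 3.23%, 8.57% and 20% of their open genes, beside 36.8% of all open genes. Of 39 Hox genes, which set position along the body axis, 31 were open and only Hoxc6 was marked, with folds of 5.53 and 6.86. Collagens were marked at 3 of 42 with 35 open, the highest being Col6a5 at 5.04 and 4.71. No Hox gene and no collagen was among the most accessible genes. Replicate 2 had a peak at a start of 5 Hox genes and 9 collagens, and replicate 1 of 4 and 6, genes with peaks of both libraries included. Endothelial markers had 6 of 8 genes open and 0 marked, and fibro-adipogenic markers 5 of 8 open and 0 marked, with replicate 1 peaks alone at Pdgfra (6.84) and Cd55 (5.75). Cytokines and chemokines were marked at 5 of 72 with 25 open, with Il7 at 9.26 and 7.36. The count was 3 with 50% reciprocal overlap, where all marked coding genes fell from 5173 to 4147. It was 9 or 8 when all peaks of replicate 2 or all peaks of replicate 1 were taken. Olfactory receptors (0 of 1086) and keratins (0 of 53) had none, and among 325 vomeronasal receptors Vmn1r4 had a member, at 7.23 and 7.76.

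Sarcomere genes were marked at 4 of 26, with Mylpf, the fast skeletal regulatory light chain, at 7.24 and 7.91, Actn2 at 7.29 and 6.37, Actn3 at 5.70 and 7.53 and Tpm2 at 5.94 and 5.39. Myofibre markers were marked at 1 of 10, which was again Mylpf, and Ryr1 had a replicate 1 peak alone at 4.09. Of open genes, 20% of sarcomere genes and 11.1% of myofibre markers were marked, beside 36.8% of all open genes. Immune markers had 2 of 10 genes open and no peak of either TRF2 library.

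Among MuSC markers, 6 of 17 were marked and all 17 were open, a share of 35.3% beside 36.8% of all open genes. Of the 5 among the most accessible genes 2 were marked, against 78.9% of all genes there. Cd34, a surface sialomucin of quiescent MuSCs, had folds of 8.91 and 7.94. Chodl had 6.14 and 6.58, Hey1, a Notch effector, 6.12 and 5.56, and Des, the muscle intermediate filament, 5.32 and 5.39. Megf10 had 4.85 and 6.98 and the chemokine receptor Cxcr4 4.60 and 4.08. Peaks of 1 library alone lay at Cdh15 (5.59), Heyl (4.18) and Sdc4 (5.87) in replicate 2 and at Itga7 (3.95) and Myod1 (5.91) in replicate 1. The 6 members rested on 7 to 15 fragments in each library. With stricter peaks 2 genes were left, beside 2944 of the 5173 marked coding genes. Of the 7 genes that the study names for TRF2 occupancy, Cd34, Hey1 and Dag1 (dystroglycan, 8.07 and 6.15) were marked. Dll1 (4.07), Sdc4 and Myod1 had a peak of 1 library and Pax7 had none at a start. The study names regulatory regions of these genes, for Pax7 an enhancer beyond the gene, and used a consensus of several peak callers. Here peaks of 1 caller within 1 kb of a start were counted, so the measures differ. Regions away from the starts of Dll1, Sdc4 and Myod1 were not looked at. The list of 7 genes was chosen by the study from these libraries and is no independent evidence.

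Notch signalling, in which ligand binding leads to cleavage of the receptor and entry of its intracellular part into the nucleus, holds MuSCs quiescent. Of its 21 listed genes all were open and 9 were marked, 42.9% beside 36.8% of all open genes. Replicate 2 had a peak at a start of 14 of them and replicate 1 of 10, genes with peaks of both libraries included. A peak of replicate 2 only was found at 4, and of replicate 1 only at 0. Among the ligands and their helpers, Mib1, the ligase that activates ligands, had 6.84 and 5.51, while Dll1 (4.07) and Jag2 (3.88) had replicate 2 peaks alone. Of the receptors, Notch4 was marked at 4.48 and 6.50 and Notch2 had a replicate 2 peak of 4.63. The Notch4 region (chr17:34587239-34587704) was not at the gene's first base, 34564268, but near its 3′ end at 34588503. It counts through the start of another annotated transcript. With starts of genes only, 8 of the listed genes were marked. The receptor proteases Adam10 (9.36 and 6.92) and Adam17 (4.87 and 8.18) were marked, as was Numb, an inhibitor of the pathway, at 8.98 and 11.5. The coactivator Maml1 had 6.06 and 7.53, and the targets Hey1 and Hey2 were marked, Hey2 with 6.84 and 9.24. Rbpj had a peak in each library, at 7.13 and 6.88, that did not form a shared region free of IgG.

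Myogenic regulatory and Mef2 factors were marked at 4 of 12, all open, or 33.3% beside 36.8% of all open genes, among them Myf6 (8.18 and 7.41), Mef2b (7.55 and 6.37) and Mef2d (4.34 and 3.92). AP-1 and immediate early genes were marked at 6 of 16, or 37.5%. Klf6 had 9.54 and 9.01, Jun 7.81 and 8.30 from 31 and 26 fragments, Egr1 6.36 and 7.41, Atf3 7.13 and 6.09, Fosl2 5.18 and 8.72 and Klf4 5.21 and 5.91. Fos (5.66) and Jund (5.76) had a replicate 1 peak alone and Junb (3.80) a replicate 2 peak alone. Of this list 11 were among the most accessible genes, where 5 were marked, against 78.9% of all genes there.

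Of the 7 shelterin genes, all open, 2 were marked, or 28.6% beside 36.8% of all open genes. All 7 had a peak of at least 1 TRF2 library at a start, as did all 7 CCT subunits. Replicate 2 had a peak at 5 of the shelterin genes and replicate 1 at 4, beside 34.9% and 33.1% of all coding genes. Those shares include genes that are not open. The shares of open genes with a peak of 1 library, or of either, were not computed, so these counts lack a like background. Terf1, the partner that also binds TTAGGG duplex, had 6.07 and 6.81, and Pot1b, a single-strand binder, 6.12 and 5.13. Terf2 itself had a replicate 1 peak with a fold of 5.40 and 7 fragments and none in replicate 2 or IgG. Acd (3.39) also had a replicate 1 peak alone, and Pot1a (6.06), Terf2ip (6.96) and Tinf2 (5.63) had replicate 2 peaks alone.

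**Figure D5:**
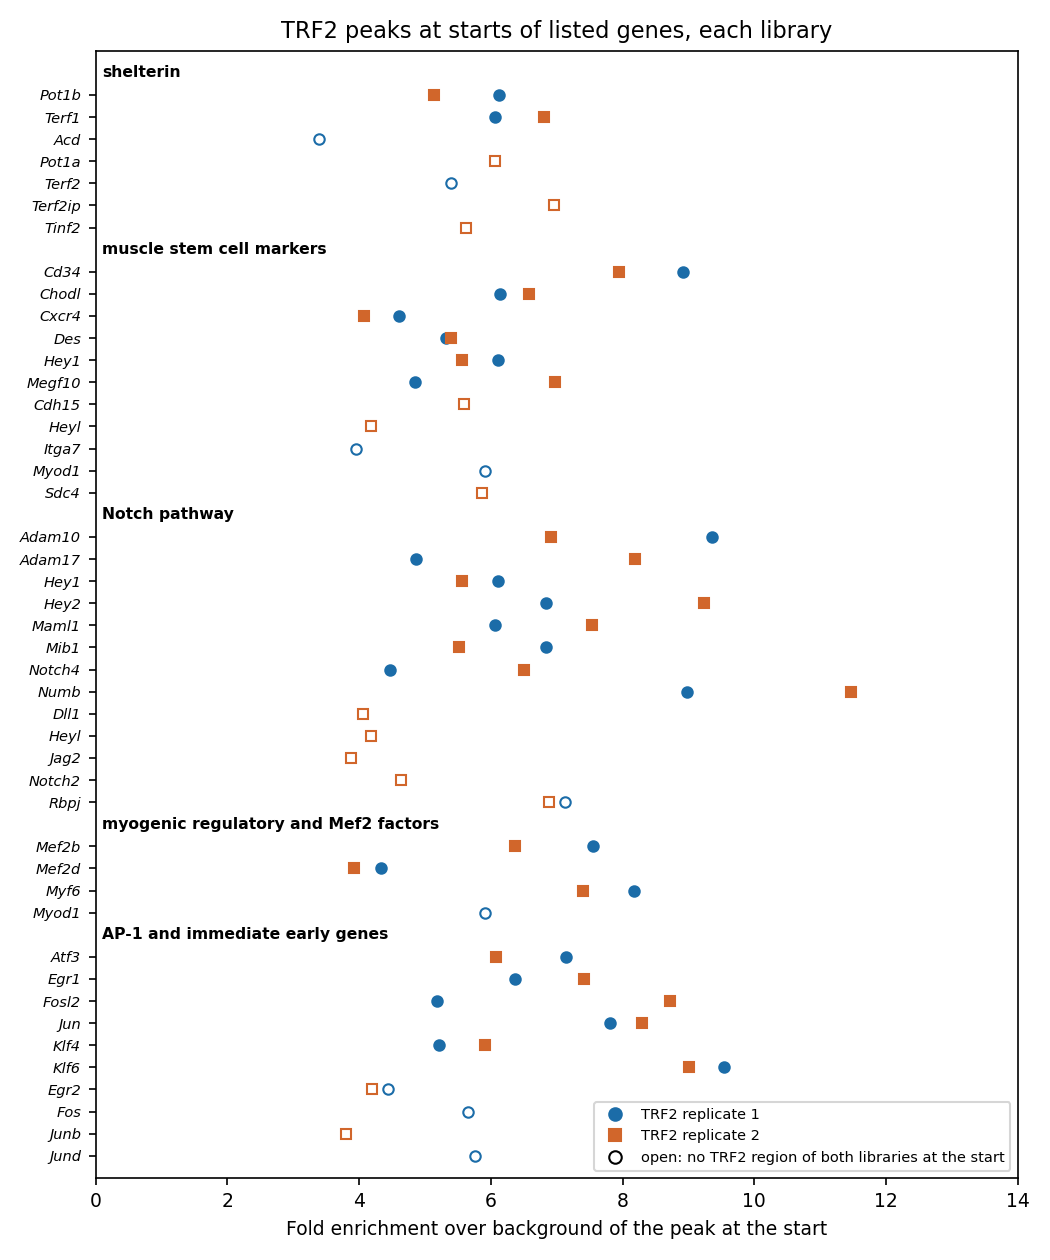
Fold enrichment of the TRF2 peak at the start (horizontal axis) for named genes of 5 lists, with replicate 1 as circles and replicate 2 as squares. Filled pairs are marked genes, the highest being Numb at 11.5 in replicate 2, and open symbols are peaks with no shared region, such as Terf2 with replicate 1 alone at 5.40.

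Members were spread over all autosomes, from 2.19 per Mb on chromosome 14 to 4.40 on chromosome 19. The share of open coding genes that was marked varied less, from 32.2% on chromosome 6 to 42.0% on chromosome 12.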

How the data were processed

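The authors trimmed reads with cutadapt (4.4 per the labels), aligned them to mm10 with Bowtie2 (2.4.4 per the labels, another version in the methods), removed duplicates and non-unique reads with SAMtools 1.10 and Picard 3.1.1, and called peaks with MACS3 3.0.0. The deposited peak lists hold, per peak, the fold (a linear ratio of fragments over background at the summit) and the -log10 of its p-value and q-value, with no -log10 q below 1.30. They also hold a deposited score, which MACS derives from the q-value and which was not used. How IgG entered the calling and the exact thresholds are not given in the sources used here. Peaks were called per library. Deposited consensus, GoPeaks and SEACR lists were not used.

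Python 3.11.15 was used. TRF2 peaks sharing at least 1 bp were merged, starts came from GENCODE M21, and sequence from the RefSeq GRCm38 genome. Promoters were counted to 3 kb and genes to 1 kb. Fragments were solved from fold and p-value and came out for 100% of peaks with a -log10 p under 200. Interval routines were tested on simulated data. Intervals are exact at 95% and cover counting error only. Nothing was tested between groups, since IgG had 1 library. Genes were named by fixed rules: the 10 highest lower folds at coding starts, 5 widest, 5 highest beyond 3 kb, members with at least 3 telomeric units, the 3 highest of 1 library or of IgG, listed genes (each gene with a peak in short lists, up to 4 in long ones), Terf2, Pax7 and genes the study names. The windows printed, the AP-1 members and the accessibility splits were chosen after the values were seen. Members and lists were chosen with earlier results of these data known. Samples were grouped by title, since the genotype label of the TRF2KO ATAC libraries reads Wildtype. Alternatives are given below. Some genes and sequences that these rules name are not reported here.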

Additional observations from a re-analysis of the deposited data

Results flagged for a closer look

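On chromosome X, which the comparisons leave out, 119 regions had a peak of both TRF2 libraries and no IgG peak, from 221 and 253 TRF2 peaks and 13 IgG peaks. It is given because these peaks lie outside the comparisons and the TRF2 lists there are longer than the IgG list. The regions were chosen for lacking an IgG peak and sequencing depth is unknown, so the counts do not compare amounts.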

How the results depend on the processing

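The share of 18 of 29 lists was above that of all coding genes, and 17 or 18 were under every alternative. Asking that no IgG peak lay within 1 kb gave 7047 regions and 50% reciprocal overlap 5617. Stricter peaks (-log10 q at or above 5) gave 3439 regions with a median width of 526 bp, 78.7% of them within 3 kb of a start, a median GC of 63.7%, 2944 coding genes and 48.3% of distal windows with TGANTCA. That last share, added after seeing the data, was 46.5% with 50% reciprocal overlap, 47.5% with regions of at most 50% repeats and 41.0% with starts of genes only. The share within 3 kb was 65.8% with starts of genes only, and 68.2% lay within 1 kb. Replicates were left out in turn by taking all IgG-free peaks of 1 library, whether or not the other library shared them. This gave 11798 to 14904 regions, widths of 283 to 339 bp, 56.8% to 62.7% within 3 kb, 6862 to 7242 coding genes, 73.4% to 80.5% with a Control ATAC peak, a median GC of 58.1% to 59.7% and 35.1% to 36.5% of distal windows with TGANTCA. Of the 29 lists, 17 changed by over 1.5 times with stricter peaks, 2 with reciprocal overlap, 10 without replicate 1, 8 without replicate 2, 2 with starts counted to 3 kb, 1 with starts of genes only and 0 with no IgG peak within 1 kb. Without replicate 1, for one, aminoacyl-tRNA synthetases stood at 29 of 36 and damage response genes at 22 of 30, beside 7242 of all 20807 coding genes. No paired analysis was possible because IgG had 1 library and no group test was made. The causes were not tested.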
